A study of Mus musculus with 15 samples.

Results

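The kinesin superfamily was represented by 41 genes of 19500 named genes, read by 46 of the 22092 probe sets of the array. Members were the genes whose symbol is Kif or Klc followed by a number. Where a gene had several probe sets, the brightest over all arrays stood for it. Sorted by known role, they were 12 mitotic kinesins, 16 transport kinesins and light chains, 5 kinesins that act on microtubule ends or as anchors, 6 linked to the cilium or to Hedgehog signalling, and 2 others. The rule for members used symbols and no measured value, and no member was removed for a low signal. Klc2 was not analysed here.

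The samples were cerebellar RNA from Tg(Pcp2-L10a-Egfp) mice, in which a GFP-tagged ribosomal protein, L10a, is made under the promoter of Pcp2, a gene of Purkinje cells. Polysomes carrying the tag were captured on beads with GFP antibodies (TRAP, translating ribosome affinity purification), and the RNA bound to them was hybridised to arrays. There were 3 arrays at each of 5 ages, in days after birth: P0, P7, P15, P21 and P56. All mice carried the transgene, cerebella were pooled, and unpurified or untagged RNA was not used here, so no value is an enrichment over the tissue.

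Kinesins walk along microtubules with energy from ATP, most of them towards the plus end. One set of family members builds and drives the mitotic spindle in dividing cells, and another carries vesicles, organelles and protein complexes along axons and dendrites. Others shorten or cap microtubules, or work in cilia, where Hedgehog signals are read. Purkinje cells leave the cell cycle before birth, while progenitors of granule cells keep dividing in the outer layer of the cerebellum during the first postnatal weeks.

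Values are log2 signals, so a change of 1 is a doubling or a halving. A gene was called changed at an adjusted p under 0.05 (limma over all 22092 probe sets, Benjamini-Hochberg), and errors of changes are standard errors of the fit (SE). A signal below the lower quartile of its array (5.86 to 6.01) is not shown to be above background, which was so on all 15 arrays for 4 members (Kif2b, Kif4, Kif20b and Kif4-ps). The mean of 11 Purkinje cell markers was 9.26 at P0, 13.14 at P7, 13.22 at P15, 13.14 at P21 and 13.30 at P56. Over the same ages the mean of 8 endothelial markers was 9.04, 6.89, 6.72, 6.67 and 6.38. That of 8 microglial markers was 8.07, 6.66, 6.61, 6.85 and 6.63. These lists differed most between P7 and P0, and their part in the changes at that step was not tested. Less RNA of a gene per cell and fewer cells that hold it cannot be told apart. The labels name no batch or scan date, so effects of batch and of age cannot be told apart.

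Most kinesin genes changed with age. By the F-test over all ages 37 of 41 differed, against 81.6% of all probe sets, and the 4 that were not called were Kif2b, Kif4-ps, Kif12 and Kif27. Between P56 and P0, 9 members rose, 23 fell and 9 were not called. Of all probe sets 40.1% rose and 35.3% fell in that comparison. The median log2 change was -0.37 over the members and 0.08 over all probe sets. With every array's median set to 0, the members split into 18 that rose and 15 that fell, and the median of all probe sets moved to 0.41. The split between rises and falls therefore depended on the scaling, and changes of the members are best read against the median of all probe sets.

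**Figure D1:**
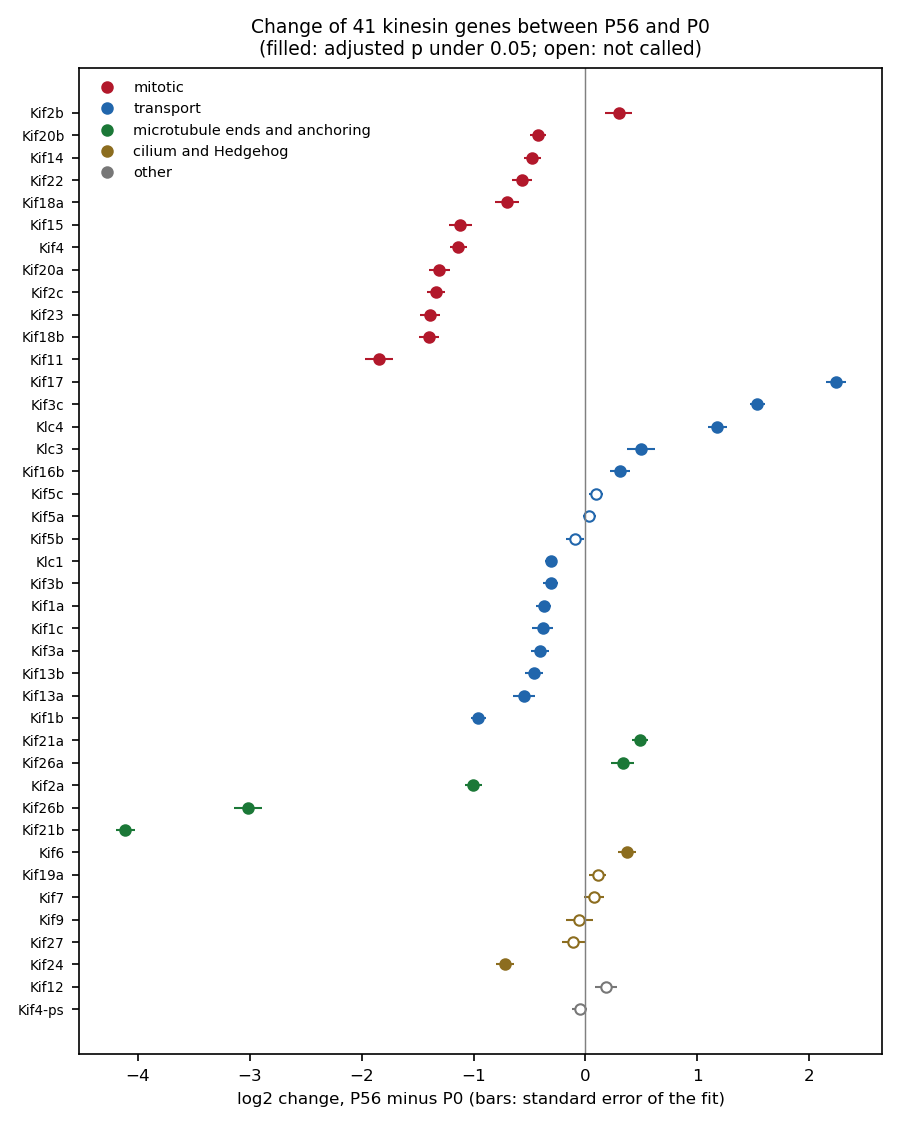
Log2 change between P56 and P0 (x axis) for each of the 41 kinesin genes (rows, grouped by class), with the standard error of the fit as bars and filled points for genes called at an adjusted p under 0.05. Mitotic kinesins lie left of 0 except Kif2b, while the transport class runs between Kif1b at -0.96 and Kif17 at 2.23, and Kif21b has the largest fall, -4.11.

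The steps between ages differed in which kinesins moved. At P7 minus P0, 10 members rose and 16 fell, where 33.6% of all probe sets rose and 28.5% fell. At P15 minus P7, 1 rose and 14 fell, against 10.4% and 13.6%. At P21 minus P15, 4 rose and 5 fell, against 10.5% and 7.16%. At P56 minus P21, 13 rose and 10 fell, against 22.1% and 34.3%. The classes differed in where their largest step lay. For 11 of the 12 mitotic kinesins it was P15 minus P7, whereas 7 of the 16 transport members had it at P7 minus P0 and 7 at P56 minus P21. P7 minus P0 and P56 minus P21 were also the steps with the most calls over all probe sets. The largest step was not counted over all probe sets, so the transport counts are not shown to differ from the array. Setting array medians to 0 gave a split at P56 minus P21 of 23 risen and 7 fallen, and at P15 minus P7 it was 3 risen and 14 fallen. The same scaling moved the share of rises among all called probe sets to 69.1% from 39.3% at P56 minus P21, and to 62.2% from 43.3% at P15 minus P7. At P21 minus P15 that share moved to 45.9% from 59.5%, and at P56 minus P0 to 70.2% from 53.2%. With quantile normalization the share at P56 minus P21 was 50%.

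**Figure D2:**
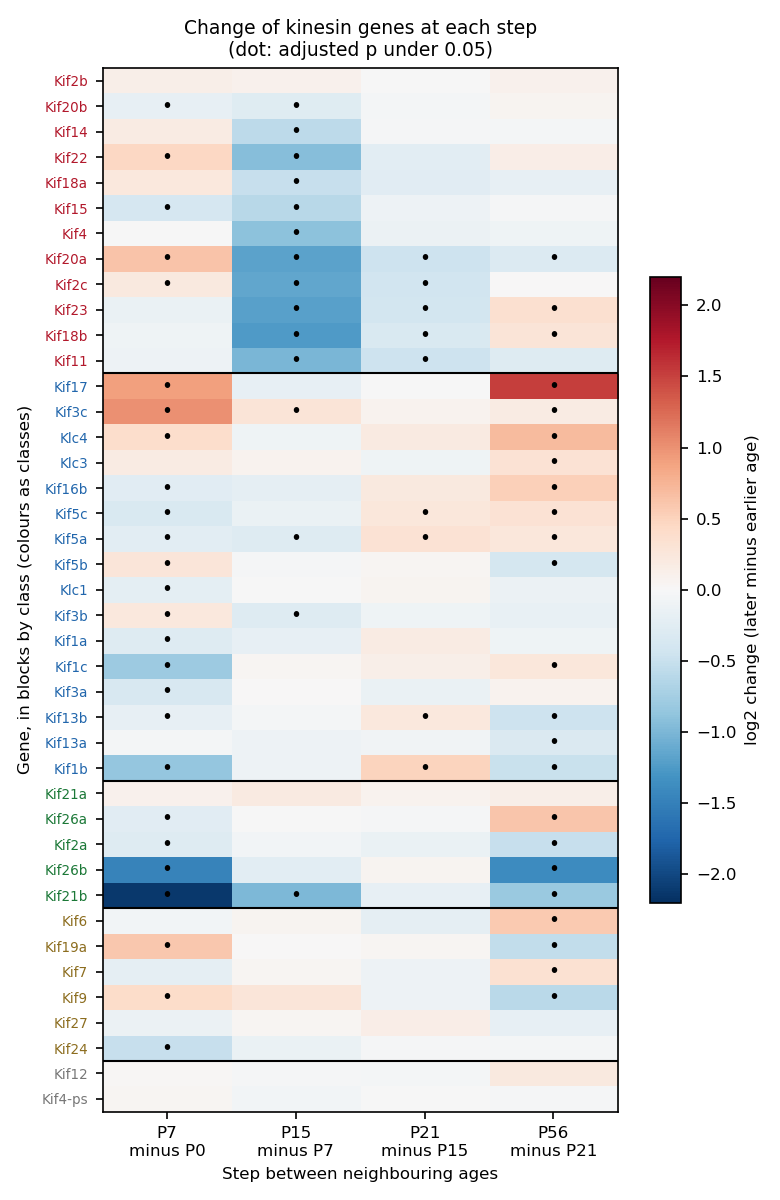
Log2 change of each kinesin gene (rows, in blocks by class) at the 4 steps between neighbouring ages (columns), with red for a higher and blue for a lower later age and a dot for an adjusted p under 0.05. The mitotic block is blue with dots at P15 minus P7 for 11 of 12 genes. The transport block has its dots mostly at P7 minus P0 and P56 minus P21, the steps with the most calls over all probe sets.

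Mitotic kinesins fell together between P7 and P15. At P15 minus P7, 11 of the 12 fell, 0 rose and 1 (Kif2b) was not called, with a median log2 change of -0.92 against 0.01 over all probe sets. At that step 10.4% of all probe sets rose and 13.6% fell. At P56 minus P0, where 40.1% of all probe sets rose and 35.3% fell, the same 11 mitotic kinesins fell, Kif2b rose, and their median was -1.13. The class mean was 6.75 ± 0.05 at P0, 6.83 ± 0.03 at P7, 6.04 ± 0.02 at P15, 5.80 ± 0.04 at P21 and 5.80 ± 0.06 at P56 (SD, n = 3 each). All 3 P15 arrays lay below all P0 and P7 arrays, and the P21 and P56 arrays lay below those of P15. The signals were low, with 6 of the 12 genes below the lower quartile on all arrays at P56, against 3 at P0. The sizes of these changes are uncertain where the lower level is not shown to be above background. With array medians set to 0, 9 of the 11 were still called lower at P56 minus P0, and Kif14 and Kif20b were not.

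**Figure D3:**
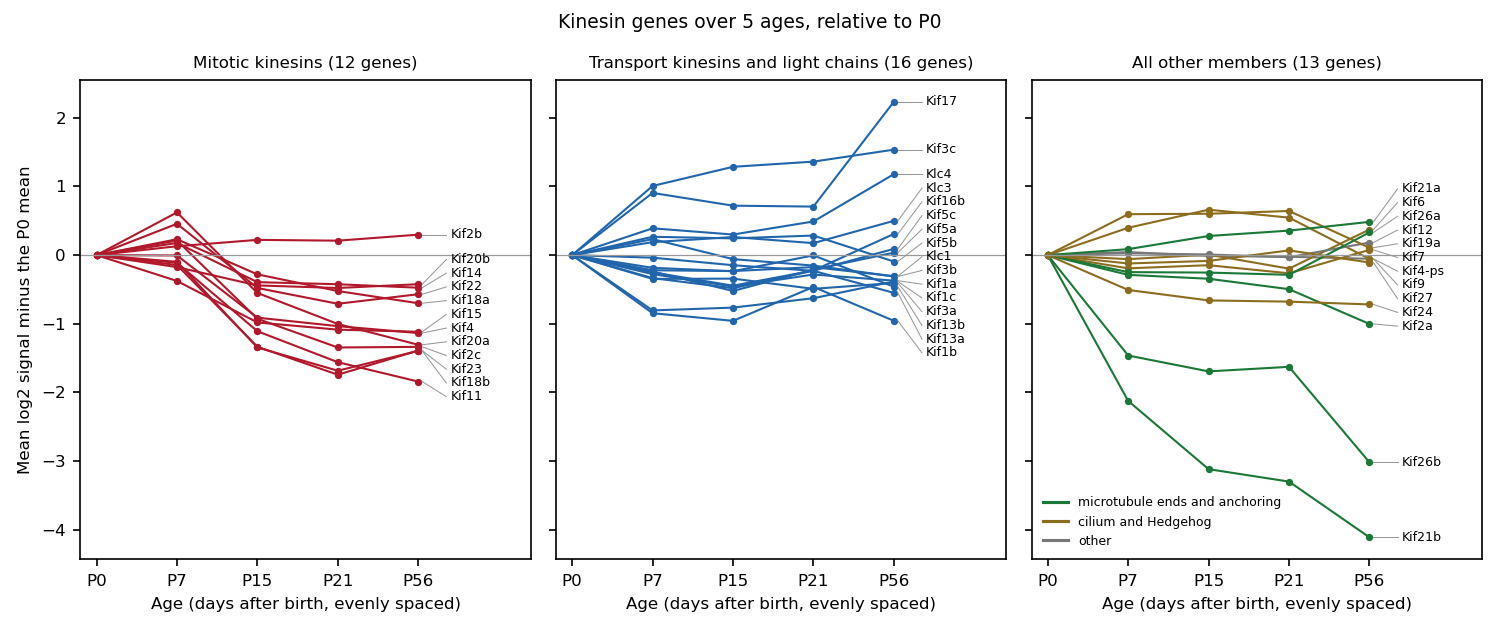
Mean log2 signal of each kinesin gene at the 5 ages minus its mean at P0, in 3 panels for mitotic kinesins, transport kinesins with light chains, and all other members (ages evenly spaced). Lines of the mitotic panel drop between P7 and P15 apart from Kif2b, and Kif17, Kif3c, Kif26b and Kif21b depart farthest from 0 elsewhere.

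The motors that separate the spindle poles fell at P15 minus P7, and Kif11 had the largest fall of the mitotic class at P56 minus P0. Kif11 gave 8.53, 8.58 and 8.53 at P0, 8.55, 8.33 and 8.42 at P7, 7.48, 7.31 and 7.52 at P15, 7.18, 6.85 and 6.93 at P21, and 6.38, 7.02 and 6.72 at P56. Kif11 (Eg5) slides antiparallel microtubules apart to push the poles away from each other. It was high on the P0 and P7 arrays and low on the 9 later ones, without overlap, with a log2 change at P15 minus P7 of -1.0 (SE 0.12, adjusted p 2.19e-05) and at P56 minus P0 of -1.84 (SE 0.12, adjusted p 3.22e-10), a 3.59-fold lower signal. The further fall at P21 minus P15, -0.45 (SE 0.12, adjusted p 0.0182), was no longer called without replicate 1 or 3 of P15 or replicate 2 or 3 of P21 (-0.43 to -0.38). Kif15, which can hold the poles apart when Kif11 is blocked, already fell by P7, with -0.38 (SE 0.10, adjusted p 0.00400) at P7 minus P0 and -0.60 (SE 0.10, adjusted p 0.000379) at P15 minus P7, the earlier of which was lost with quantile normalization (-0.24, adjusted p 0.0700).

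Kinesins of the central spindle and of cytokinesis fell as well. Kif23 gave 7.49, 7.69 and 7.42 at P0, 7.5, 7.35 and 7.31 at P7, 6.04, 6.29 and 6.26 at P15, 5.75, 5.90 and 5.72 at P21, and 6.11, 6.08 and 6.24 at P56. Kif23 (MKLP1) bundles microtubules between the separating chromosomes. Its P0 and P7 arrays overlapped each other and lay above all later ones. The log2 change was -1.19 (SE 0.09, adjusted p 7.80e-08) at P15 minus P7 and -1.39 (SE 0.09, adjusted p 1.80e-10) at P56 minus P0, and the P56 arrays lay above those of P21 by 0.35 (SE 0.09, adjusted p 0.00311). Kif20a gave 7.10, 7.15 and 7.20 at P0, 7.94, 7.62 and 7.76 at P7, 6.64, 6.42 and 6.74 at P15, 6.19, 6.16 and 6.10 at P21, and 5.97, 5.83 and 5.74 at P56. Kif20a (MKLP2) brings Aurora B to the same place. Unlike Kif23 it peaked at P7, where its arrays lay above those of every other age. It rose by 0.62 (SE 0.09, adjusted p 1.20e-05) at P7 minus P0 and then fell at each later step, with -1.17 (SE 0.09, adjusted p 1.21e-07) at P15 minus P7, -0.45 (SE 0.09, adjusted p 0.00242) at P21 minus P15 and -0.30 (SE 0.09, adjusted p 0.0103) at P56 minus P21. The call of that last step was lost with array medians set to 0 (-0.068, adjusted p 0.519) and with array weights (adjusted p 0.0669). Kif14, which binds Prc1 at the midbody, changed by -0.57 (SE 0.08, adjusted p 3.64e-05) at P15 minus P7 and was below the lower quartile on all arrays from P15 on. Kif20b, which also acts in cytokinesis, changed by -0.27 (SE 0.07, adjusted p 0.00959), a call lost without replicate 1 of P15 (-0.22), at levels below the quartile throughout. Its smaller fall at P7 minus P0, -0.17 (SE 0.07, adjusted p 0.0386), was lost without any 1 of the 6 arrays compared (-0.19 to -0.15).

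Kinesins that shorten spindle microtubules or push chromosomes followed. Kif18b gave 8.05, 8.20 and 7.96 at P0, 8.03, 7.96 and 7.93 at P7, 6.78, 6.80 and 6.59 at P15, 6.32, 6.53 and 6.31 at P21, and 6.75, 6.76 and 6.51 at P56. Kif18b shortens astral microtubules. Its P0 and P7 arrays stood above all later ones. The log2 change was -1.25 (SE 0.09, adjusted p 3.73e-08) at P15 minus P7 and -1.39 (SE 0.09, adjusted p 1.43e-10) at P56 minus P0. At P21 minus P15 it fell, with -0.34 (SE 0.09, adjusted p 0.0136), lost without replicate 1 or 2 of P15 or replicate 3 of P21 (-0.31 to -0.30), and at P56 minus P21 it rose by 0.29 (SE 0.09, adjusted p 0.0107) with arrays that overlapped. Kif2c gave 6.98, 6.95 and 7.09 at P0, 7.26, 7.23 and 7.16 at P7, 5.99, 6.04 and 6.20 at P15, 5.59, 5.69 and 5.70 at P21, and 5.80, 5.66 and 5.55 at P56. Kif2c (MCAK) takes microtubules apart at centromeres. It was highest at P7 and fell below the lower quartile on all arrays of P21 and P56. Its changes were -1.14 (SE 0.08, adjusted p 2.50e-08) at P15 minus P7, -0.42 (SE 0.08, adjusted p 0.00121) at P21 minus P15 and -1.34 (SE 0.08, adjusted p 4.00e-11) at P56 minus P0. The small rise at P7 minus P0, 0.21 (SE 0.08, adjusted p 0.0250), was lost without replicate 1 or 2 of P0 or of P7 (0.18 to 0.21). Kif18a, which dampens the swings of aligned chromosomes, changed by -0.51 (SE 0.11, adjusted p 0.00184) at P15 minus P7.

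The chromokinesins Kif4 and Kif22, which bind chromosome arms, changed by -0.91 (SE 0.08, adjusted p 3.76e-07) and -0.94 (SE 0.09, adjusted p 1.26e-06) at P15 minus P7. Kif22 had risen by 0.46 (SE 0.09, adjusted p 0.000247) at P7 minus P0, while Kif4 was not called there. Kif4 was below the lower quartile on all 15 arrays, so its level is uncertain although its P0 and P7 arrays lay above all later ones. Kif2b gave 5.30, 5.03 and 5.09 at P0, 5.05, 5.47 and 5.29 at P7, 5.22, 5.53 and 5.33 at P15, 5.45, 5.38 and 5.21 at P21, and 5.68, 5.34 and 5.30 at P56. Kif2b, a further microtubule-shortening kinesin of the spindle, was below the quartile on every array. Its P56 and P0 arrays overlapped, and its rise of 0.30 (SE 0.12, adjusted p 0.0351) was lost without replicate 2 or 3 of P0 or replicate 1 of P56 (0.18 to 0.27), with array weights and with quantile normalization (0.20).

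Because 11 mitotic kinesins fell at the same step, the windows around their start sites were searched for motifs known from cell cycle promoters. Windows ran over 250 bases before and 50 after a start site (RefSeq, GRCm38.p6), and 34 of the 41 members had one. Among the mitotic kinesins, Kif20a, which fell, had no window, while Kif2b, not called at P15 minus P7, did. The motifs were the cell cycle genes homology region (CHR, TTTGAA, and its variant TTCGAA), the CCAAT box, and the E2F-type motifs GCGGGAA and TTTGGCG with the near match GGCGGGA, each read on both strands. GCGGGAA and GGCGGGA can overlap by up to 6 bases, and the motifs were chosen with the results known. TTTGAA was present in 9 of the 11 mitotic genes with a window, in 1 of 13 transport genes (Kif1a), and in 17.9% of all 32851 windows (20.2% of 27025 genes). CCAAT was present in 7 of 11 mitotic and 5 of 13 transport genes, and in 37.4% of windows (41.1% of genes). TTTGGCG stood in 2 mitotic genes and 1 transport gene (1.56% of windows, 1.77% of genes), and GGCGGGA in 1 and 2 (11.3% and 12.7%). TTCGAA (1.56% and 1.8%) and GCGGGAA (4.60% and 5.29%) stood in 0 of either class. A match is a description of letters and not a bound site.

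TTTGAA and CCAAT both stood in 6 mitotic kinesins, Kif4, Kif11, Kif14, Kif18b, Kif22 and Kif23. Both also stood in Kif26b and Kif27, members of other classes. The windows of 4 of the mitotic kinesins show the place of the motifs relative to the start site, which is base 251 of each. Capitals mark TTTGAA or CCAAT on either strand, so that they also read TTCAAA or ATTGG, and each window is written on its gene's strand. The windows are Kif11 on chr19:37376132-37376431 (plus strand), Kif18b on chr11:102925075-102925374 (minus), Kif22 on chr7:127042371-127042670 (minus) and Kif23 on chr9:61946750-61947049 (minus).
Kif11: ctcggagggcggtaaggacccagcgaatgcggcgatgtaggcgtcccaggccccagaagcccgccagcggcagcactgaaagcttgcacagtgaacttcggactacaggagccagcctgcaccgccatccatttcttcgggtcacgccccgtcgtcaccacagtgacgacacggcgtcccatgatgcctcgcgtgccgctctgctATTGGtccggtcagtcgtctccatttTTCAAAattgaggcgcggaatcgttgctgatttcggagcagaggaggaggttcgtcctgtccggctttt
Kif18b: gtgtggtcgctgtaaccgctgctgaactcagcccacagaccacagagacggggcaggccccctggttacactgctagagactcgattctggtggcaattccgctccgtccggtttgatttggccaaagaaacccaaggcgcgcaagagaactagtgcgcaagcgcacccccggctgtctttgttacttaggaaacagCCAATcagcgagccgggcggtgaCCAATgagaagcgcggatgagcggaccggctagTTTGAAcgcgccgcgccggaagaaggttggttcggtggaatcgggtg
Kif22: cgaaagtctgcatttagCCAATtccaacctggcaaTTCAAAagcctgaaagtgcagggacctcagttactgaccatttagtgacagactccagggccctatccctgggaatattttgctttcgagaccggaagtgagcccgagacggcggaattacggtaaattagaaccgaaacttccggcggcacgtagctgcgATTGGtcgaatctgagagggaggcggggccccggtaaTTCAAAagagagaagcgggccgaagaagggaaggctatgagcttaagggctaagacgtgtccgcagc
Kif23: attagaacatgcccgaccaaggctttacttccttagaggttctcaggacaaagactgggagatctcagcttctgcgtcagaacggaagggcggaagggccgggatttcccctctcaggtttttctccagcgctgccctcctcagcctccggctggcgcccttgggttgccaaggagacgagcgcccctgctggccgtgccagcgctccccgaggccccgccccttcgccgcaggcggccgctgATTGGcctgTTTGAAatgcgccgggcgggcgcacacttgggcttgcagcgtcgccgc

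In these windows the first base of TTTGAA nearest to the start site lay at -19 in Kif11, at 4 in Kif18b, at -17 in Kif22 and at 3 in Kif23, with the start site as 1 and the base before it as -1. The nearest CCAAT upstream of it lay at -45, -30, -54 and -7 in the same order of genes. In all 4 the CCAAT motif thus stood upstream of TTTGAA without overlap. In Kif4, not printed, CCAAT stood at -152 and -5 and TTTGAA at 20, while Kif14, not printed either, had the reverse order, with TTTGAA at -228 and CCAAT at -92. CCAAT upstream of TTTGAA was not particular to the mitotic class. In Kif26b CCAAT stood at -73 and TTTGAA at -9, and in Kif27 CCAAT stood at -222 and TTTGAA at -191, -89 and -73. The windows of Kif3c on chr12:3364882-3365181 (plus) and Kif17 on chr4:138262001-138262300 (plus), transport kinesins that rose, are given for contrast and held neither motif.
Kif3c: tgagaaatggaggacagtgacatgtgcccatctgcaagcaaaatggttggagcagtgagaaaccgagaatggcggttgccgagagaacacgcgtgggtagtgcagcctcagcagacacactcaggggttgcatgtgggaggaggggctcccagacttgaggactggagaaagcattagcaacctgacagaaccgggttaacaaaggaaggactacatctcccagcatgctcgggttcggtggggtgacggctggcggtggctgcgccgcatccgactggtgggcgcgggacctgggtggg
Kif17: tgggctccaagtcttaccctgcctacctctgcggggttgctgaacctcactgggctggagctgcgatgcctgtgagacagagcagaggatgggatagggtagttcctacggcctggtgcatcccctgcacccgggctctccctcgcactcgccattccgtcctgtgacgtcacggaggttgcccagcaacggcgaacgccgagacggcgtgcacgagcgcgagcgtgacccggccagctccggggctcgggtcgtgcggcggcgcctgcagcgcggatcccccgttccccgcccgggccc

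Genes of other mitotic proteins moved at the same step as the mitotic kinesins. At P15 minus P7, 10.4% of all probe sets rose and 13.6% fell. Of 25 measured mitosis genes that are not kinesins, 1 rose, 19 fell and 5 were not called at that step, with a median of -1.25. Their mean was 7.96 at P0, 8.10 at P7, 7.11 at P15, 6.84 at P21 and 6.69 at P56. At P56 minus P0, 3 rose and 22 fell, led by Ccna2 (cyclin A2, -3.75), Mki67 (a marker of cycling cells, -3.14), Plk1 (a mitotic kinase, -2.93) and Cdk1 (the main mitotic cyclin-dependent kinase, -2.65). The 10 markers of granule cell progenitors had means of 9.41 at P0, 9.51 at P7, 8.56 at P15, 8.25 at P21 and 8.18 at P56, and 7 of them fell at P15 minus P7 while 1 rose. The endothelial and microglial markers moved at P7 minus P0 instead, where 8 of 8 and 7 of 8 fell, against 28.5% of all probe sets. The part of any of these cells in the fall of the mitotic kinesins was not tested.

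**Figure D4:**
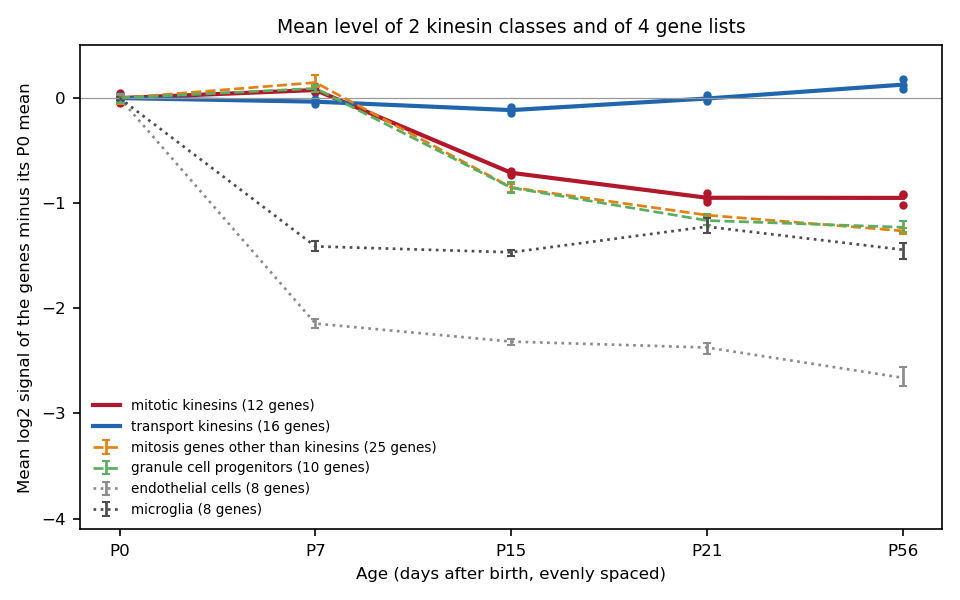
Mean log2 signal over the genes of the mitotic and transport kinesin classes and of 4 gene lists at each age, minus the mean at P0 (points: arrays of the classes; bars: lowest to highest array of the lists; ages evenly spaced). The mitotic class, the other mitosis genes and the granule cell progenitor markers drop between P7 and P15, the endothelial and microglial markers between P0 and P7, and the transport class mean stays between 9.60 and 9.84.

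The transport kinesins moved in both directions. At P56 minus P0, 5 of 16 rose (Kif17, Kif3c, Klc4, Klc3 and Kif16b), 8 fell and 3 (Kif5a, Kif5b and Kif5c) were not called, with a median of -0.20. Over all probe sets 40.1% rose and 35.3% fell, with a median of 0.08. The class mean was 9.71 ± 0.02 at P0, 9.68 ± 0.02 at P7, 9.60 ± 0.03 at P15, 9.71 ± 0.03 at P21 and 9.84 ± 0.05 at P56 (SD, n = 3 each). None of the 16 was below the lower quartile at any age. With array medians set to 0, 8 rose and 2 fell (Kif1b and Kif13a) at P56 minus P0, and the median turned to 0.12. Relative to the median of all probe sets the class is lower in both scalings. Setting array medians to 0 cannot change this, since it shifts all log2 values of an array alike.

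Within arrays, the mitotic class mean minus the transport class mean fell with age. Relative to its P0 mean, the difference on the log2 scale was 0.17, 0.07 and 0.09 on the P7 arrays, -0.61, -0.57 and -0.61 at P15, -0.93, -0.89 and -1.01 at P21, and -1.04, -1.09 and -1.10 at P56. The P7 arrays lay above P0 and each later age lay below the age before it, without overlap. Setting array medians to 0 cannot change this difference, since it shifts all log2 values of an array alike. Quantile normalization can change it, and the difference was not computed under that setting. No test was run on this score, since it is a mean over chosen members.

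The conventional kinesin heavy chains Kif5a, Kif5b and Kif5c, the motor subunits of kinesin-1, dipped or peaked between P0 and P56, and their change over the whole span depended on the scaling. Kif5a gave 11.59, 11.64 and 11.54 at P0, 11.31, 11.37 and 11.38 at P7, 11.08, 11.05 and 11.08 at P15, 11.36, 11.43 and 11.36 at P21, and 11.62, 11.68 and 11.59 at P56. Kif5c gave 11.90, 11.96 and 11.84 at P0, 11.49, 11.58 and 11.61 at P7, 11.40, 11.35 and 11.49 at P15, 11.65, 11.67 and 11.69 at P21, and 12.02, 11.98 and 11.96 at P56. Both were lowest at P15 and highest at P56, where the arrays of each overlapped those of P0. Kif5a changed by -0.28 (SE 0.06, adjusted p 0.00170) at P15 minus P7, 0.31 (SE 0.06, adjusted p 0.00122) at P21 minus P15 and 0.25 (SE 0.06, adjusted p 0.00175) at P56 minus P21. Kif5c changed by -0.33 (SE 0.06, adjusted p 0.000156) at P7 minus P0, 0.25 (SE 0.06, adjusted p 0.00943) at P21 minus P15 and 0.32 (SE 0.06, adjusted p 0.000370) at P56 minus P21. Kif5b gave 10.70, 10.58 and 10.52 at P0, 10.89, 10.89 and 10.82 at P7, 10.84, 10.73 and 10.97 at P15, 10.89, 10.73 and 11.03 at P21, and 10.48, 10.55 and 10.49 at P56. Kif5b, found in most cell types, rose by 0.27 (SE 0.08, adjusted p 0.00867) at P7 minus P0 and fell, with -0.38 (SE 0.08, adjusted p 0.000790) at P56 minus P21. The call of Kif5b at P7 minus P0 was lost with quantile normalization (0.11, adjusted p 0.224), and that at P56 minus P21 with array medians set to 0 (-0.14, adjusted p 0.117). None of the 3 was called at P56 minus P0 as deposited, with 0.04, -0.09 and 0.09 for Kif5a, Kif5b and Kif5c, whereas all 3 were called higher with array medians set to 0 (0.36, 0.23 and 0.41, with 0.41 for the median of all probe sets). Probes of such close paralogs can read each other's RNA.

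The light chains, which link kinesin-1 to cargo, moved apart. Klc4 gave 7.5, 7.5 and 7.65 at P0, 7.96, 7.88 and 7.98 at P7, 7.93, 7.89 and 7.74 at P15, 8.03, 8.05 and 8.04 at P21, and 8.76, 8.88 and 8.55 at P56. Klc4 rose, and its P56 arrays lay above those of all other ages, by 1.18 (SE 0.08, adjusted p 5.08e-10) against P0 and 0.69 (SE 0.08, adjusted p 1.66e-06) against P21. Klc3 gave 6.48, 6.27 and 6.04 at P0, 6.53, 6.54 and 6.28 at P7, 6.35, 6.54 and 6.69 at P15, 6.28, 6.70 and 6.34 at P21, and 6.66, 6.77 and 6.85 at P56. Klc3, known from testis, was dim and its P56 arrays lay above those of P0 by 0.50 (SE 0.13, adjusted p 0.00180). The last step of Klc3, 0.32 (SE 0.13, adjusted p 0.0371), was lost without replicate 1 or 3 of P21 or replicate 2 or 3 of P56 (0.24 to 0.32), and with array weights. Klc1 gave 12.30, 12.29 and 12.30 at P0, 12.05, 12.09 and 12.08 at P7, 12.09, 12.03 and 12.08 at P15, 12.09, 12.12 and 12.15 at P21, and 11.97, 12.05 and 11.93 at P56. Klc1, the neuronal light chain, was lower on the P56 than on the P0 arrays, a change of -0.31 (SE 0.06, adjusted p 0.000118). That fall of Klc1 became 0.015, uncalled, once array medians were set to 0.

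**Figure D5:**
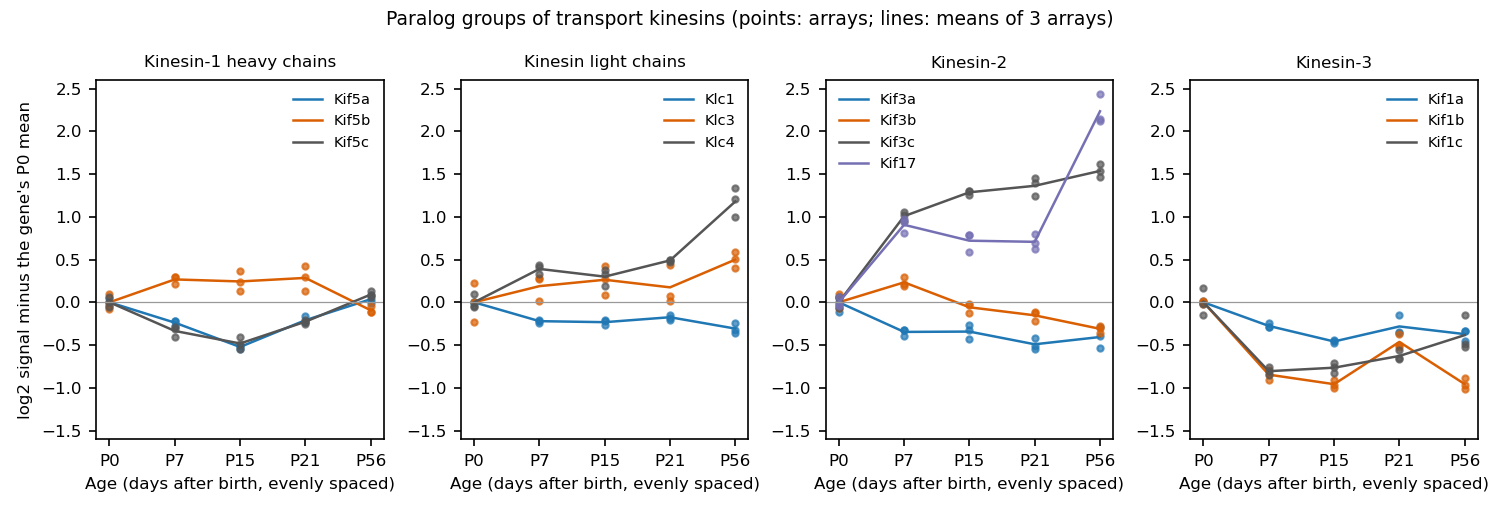
Log2 signal minus the gene's mean at P0 at the 5 ages (evenly spaced) for the kinesin-1 heavy chains, light chains, kinesin-2 and kinesin-3 genes (points: arrays; lines: means of 3 arrays). Kif17, Kif3c and Klc4 end above 1 at P56, while the Kif5 genes end between -0.09 and 0.09 and Kif1b ends at -0.96.

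In the kinesin-2 family, Kif17 and Kif3c had the largest rises of all members. Kif17 gave 7.29, 7.19 and 7.22 at P0, 8.04, 8.17 and 8.20 at P7, 8.02, 8.02 and 7.82 at P15, 8.03, 7.92 and 7.86 at P21, and 9.38, 9.67 and 9.35 at P56. Kif17, which carries NMDA receptor subunits into dendrites, rose in 2 steps. The P56 arrays stood above all others and the P0 arrays were lowest. Between them, the P7 arrays lay slightly above those of P15 and P21. The change at P15 minus P7, -0.19 (SE 0.09, adjusted p 0.158), was called only with array weights (-0.17, adjusted p 0.0434). Kif17 changed by 0.91 (SE 0.09, adjusted p 6.91e-08) at P7 minus P0, 1.53 (SE 0.09, adjusted p 2.86e-10) at P56 minus P21 and 2.23 (SE 0.09, adjusted p 2.09e-13) at P56 minus P0, a 4.71-fold higher signal. Kif3c gave 10.67, 10.79 and 10.74 at P0, 11.68, 11.76 and 11.78 at P7, 12.03, 12.04 and 11.98 at P15, 12.12, 12.18 and 11.98 at P21, and 12.20, 12.35 and 12.26 at P56. Kif3c, a neuronal partner of Kif3a, rose mainly by P7. It changed by 1.01 (SE 0.07, adjusted p 5.58e-10) at P7 minus P0, by 0.28 (SE 0.07, adjusted p 0.00655) at P15 minus P7, where it was the 1 member that rose, and by 1.54 (SE 0.07, adjusted p 1.06e-12) at P56 minus P0. Its last step, 0.17 (SE 0.07, adjusted p 0.0405), was lost without any 1 of 8 arrays (0.12 to 0.19) and with array weights.

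Kif3a and Kif3b, the subunits of the broadly made kinesin-2, were lower at P56. Kif3a gave 10.83, 10.84 and 10.66 at P0, 10.45, 10.45 and 10.38 at P7, 10.45, 10.34 and 10.51 at P15, 10.36, 10.23 and 10.26 at P21, and 10.24, 10.38 and 10.48 at P56. Kif3b gave 9.75, 9.61 and 9.58 at P0, 9.83, 9.94 and 9.87 at P7, 9.63, 9.52 and 9.61 at P15, 9.52, 9.43 and 9.53 at P21, and 9.29, 9.35 and 9.37 at P56. The P56 arrays of both lay below their P0 arrays, with changes of -0.41 (SE 0.08, adjusted p 0.000140) for Kif3a and -0.31 (SE 0.07, adjusted p 0.000402) for Kif3b. Kif3b was highest at P7, with 0.23 (SE 0.07, adjusted p 0.00499) at P7 minus P0 and -0.29 (SE 0.07, adjusted p 0.00347) at P15 minus P7, the earlier of which was lost with quantile normalization (0.10, adjusted p 0.159). Once array medians were set to 0, neither was called at P56 minus P0, and Kif3b stood at 0.012. Kif3c and Kif3b take the same place beside Kif3a. Their log2 difference within an array (Kif3c minus Kif3b) was 2.91, 3.00 and 2.89 at P56, against 0.92, 1.18 and 1.16 at P0, and it differed by 1.85 between these ages. An exact two-sided permutation test gave p = 0.1, the smallest that 3 against 3 arrays allow, and the pair was picked after its values were seen. Kifap3, the shared non-motor subunit of kinesin-2, also named after its values were seen, had a mean of 10.57 at P56 and 11.26 at P0, a change of -0.69 (SE 0.08, adjusted p 8.48e-07).

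Kinesin-3 motors, carriers of synaptic vesicle precursors and other vesicles, mostly fell. Kif1b gave 12.07, 12.05 and 12.03 at P0, 11.14, 11.26 and 11.21 at P7, 11.14, 11.05 and 11.08 at P15, 11.53, 11.55 and 11.68 at P21, and 11.16, 11.03 and 11.09 at P56. Kif1b was highest at P0, partly recovered at P21 and was low again at P56. It changed by -0.85 (SE 0.07, adjusted p 2.67e-09) at P7 minus P0, 0.49 (SE 0.07, adjusted p 6.24e-05) at P21 minus P15, -0.49 (SE 0.07, adjusted p 5.16e-06) at P56 minus P21 and -0.96 (SE 0.07, adjusted p 3.43e-10) at P56 minus P0. Kif1a gave 12.56, 12.58 and 12.56 at P0, 12.33, 12.27 and 12.27 at P7, 12.12, 12.12 and 12.09 at P15, 12.22, 12.21 and 12.42 at P21, and 12.12, 12.24 and 12.23 at P56. Kif1a, the main carrier of synaptic vesicle precursors, was higher on all P0 arrays than on any later one, by a smaller amount, with -0.28 (SE 0.07, adjusted p 0.00144) at P7 minus P0 and -0.37 (SE 0.07, adjusted p 7.38e-05) at P56 minus P0. Kif1c gave 7.5, 7.81 and 7.63 at P0, 6.89, 6.80 and 6.85 at P7, 6.89, 6.82 and 6.94 at P15, 7.0, 6.98 and 7.09 at P21, and 7.51, 7.17 and 7.12 at P56. For Kif1c, a broadly made vesicle motor, the P56 and P0 arrays overlapped. It changed by -0.81 (SE 0.10, adjusted p 7.39e-07) at P7 minus P0 and -0.38 (SE 0.10, adjusted p 0.00156) at P56 minus P0, and its other, dimmer probe set fell further (-1.25). The rise of Kif1c at P56 minus P21, 0.24 (SE 0.10, adjusted p 0.0380), was lost without replicate 1 or 2 of P21 or replicate 1 of P56 (0.12 to 0.23), and the mean of both probe sets gave 0.0017. Neither Kif1a nor Kif1c was called at P56 minus P0 with array medians set to 0, and Kif1c was not with quantile normalization either (-0.086).

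The endosomal members of kinesin-3 also differed. Kif13a gave 9.01, 9.03 and 9.09 at P0, 8.95, 9.03 and 9.04 at P7, 8.86, 8.86 and 8.98 at P15, 8.76, 8.79 and 8.90 at P21, and 8.47, 8.76 and 8.26 at P56. Kif13a, which moves recycling endosomes, drifted down, and its P56 arrays lay at or below those of all other ages, with -0.55 (SE 0.10, adjusted p 5.29e-05) against P0. Its last step, -0.32 (SE 0.10, adjusted p 0.00839), was lost without replicate 3 of P56 (-0.20), with array medians set to 0 (-0.086) and with quantile normalization (-0.022). Kif13b gave 7.53, 7.64 and 7.73 at P0, 7.38, 7.49 and 7.48 at P7, 7.37, 7.41 and 7.41 at P15, 7.5, 7.60 and 7.78 at P21, and 7.10, 7.19 and 7.23 at P56. Kif13b, the carrier of the scaffold Dlg1, was lowest at P56, with -0.46 (SE 0.08, adjusted p 3.44e-05) against P0, a call lost with array medians set to 0. Its smaller changes at P7 minus P0, -0.18 (SE 0.08, adjusted p 0.0451), and P21 minus P15, 0.23 (SE 0.08, adjusted p 0.0464), were lost without any 1 of 8 and of 9 arrays (-0.20 to -0.14 and 0.15 to 0.25), and both under either other scaling (-0.13 and -0.078, then 0.19 and 0.19). Kif16b, which carries early endosomes, fell, with -0.25 (SE 0.09, adjusted p 0.0252) at P7 minus P0, lost without replicate 2 or 3 of P0 or replicate 1 of P7 (-0.23 to -0.20) and with array medians set to 0 or quantile normalization (-0.19 and -0.17). It then rose by 0.53 (SE 0.09, adjusted p 9.85e-05) at P56 minus P21, and at P56 minus P0 the arrays overlapped with a change of 0.31 (SE 0.09, adjusted p 0.00627).

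Of the kinesins that act on microtubule ends or as anchors, 2 rose and 3 fell at P56 minus P0, and they held the largest falls of the family. Over all probe sets 40.1% rose and 35.3% fell in that comparison. Kif21b gave 11.44, 11.45 and 11.43 at P0, 9.44, 9.24 and 9.26 at P7, 8.37, 8.24 and 8.35 at P15, 8.04, 8.02 and 8.35 at P21, and 7.39, 7.35 and 7.25 at P56. Kif21b, a neuronal kinesin that slows microtubule growth, fell at 3 of the 4 steps. The arrays of P0, P7, P56 and of P15 with P21 formed separate ranges. It changed by -2.12 (SE 0.09, adjusted p 4.37e-13) at P7 minus P0, -0.99 (SE 0.09, adjusted p 3.27e-07) at P15 minus P7, -0.81 (SE 0.09, adjusted p 3.61e-07) at P56 minus P21 and -4.11 (SE 0.09, adjusted p 6.59e-17) at P56 minus P0, a 17.3-fold lower signal. Kif21a gave 10.17, 10.16 and 10.04 at P0, 10.11, 10.24 and 10.27 at P7, 10.37, 10.31 and 10.52 at P15, 10.51, 10.41 and 10.51 at P21, and 10.55, 10.64 and 10.63 at P56. Its paralog Kif21a, mutated in a congenital disorder of eye movement, was higher on the P56 than on the P0 arrays, by 0.48 (SE 0.07, adjusted p 1.05e-05), with no step called as deposited. With array medians set to 0 or quantile normalization its steps at P15 minus P7 (0.26 and 0.20) and P56 minus P21 (0.36 and 0.28) were called higher.

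Kif26b gave 10.60, 10.66 and 10.69 at P0, 9.15, 9.16 and 9.26 at P7, 9.13, 8.99 and 8.75 at P15, 8.84, 9.01 and 9.23 at P21, and 7.84, 7.32 and 7.74 at P56. Kif26b, a kinesin known from kidney development and cell adhesion, fell in 2 steps. Its P0 arrays were highest and those of P56 were lowest. Between them, the P7 arrays lay above those of P15, and the P21 arrays overlapped both. It changed by -1.46 (SE 0.12, adjusted p 9.43e-09) at P7 minus P0, -1.39 (SE 0.12, adjusted p 4.74e-08) at P56 minus P21 and -3.02 (SE 0.12, adjusted p 3.06e-13) at P56 minus P0. Its other probe set fell less (-0.84) at P56 minus P0. Kif26a gave 7.23, 7.34 and 7.59 at P0, 7.14, 7.19 and 7.08 at P7, 7.02, 7.19 and 7.18 at P15, 7.04, 7.21 and 7.05 at P21, and 7.95, 7.55 and 7.64 at P56. Kif26a, which dampens growth factor signalling in enteric neurons, had overlapping P56 and P0 arrays. Its change at P56 minus P0, 0.33 (SE 0.10, adjusted p 0.00838), was lost without replicate 1 of P0 or of P56 (0.21 to 0.25). That at P7 minus P0, -0.25 (SE 0.10, adjusted p 0.0471), was lost without any 1 of 10 arrays (-0.27 to -0.15) and under either other scaling (-0.19 and -0.12), while that at P56 minus P21 was 0.62 (SE 0.10, adjusted p 7.04e-05). Kif2a gave 11.38, 11.41 and 11.39 at P0, 11.18, 11.11 and 11.02 at P7, 11.03, 10.96 and 11.15 at P15, 10.95, 10.79 and 10.94 at P21, and 10.29, 10.36 and 10.52 at P56. Kif2a, which trims microtubules and limits side branches of axons, was lowest at P56, with -1.0 (SE 0.08, adjusted p 1.63e-09) against P0 and -0.51 (SE 0.08, adjusted p 2.27e-05) against P21.

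Kinesins of the cilium and of Hedgehog signalling were called, in the deposited scaling, at the first and last steps. At P7 minus P0, 2 of the 6 rose and 1 fell, at P56 minus P21, 2 rose and 2 fell, and 0 were called at the steps between. Of all probe sets, 33.6% rose and 28.5% fell at P7 minus P0, and 22.1% and 34.3% at P56 minus P21. These shares were smaller at P15 minus P7 (10.4% and 13.6%) and P21 minus P15 (10.5% and 7.16%), so the class followed the calls of the whole array. At P56 minus P0, where 40.1% of all probe sets rose and 35.3% fell, 1 rose (Kif6), 1 fell (Kif24) and 4 were not called. Setting array medians to 0 made those 4 called higher as well, Kif7 by 0.40, Kif9 by 0.27, Kif19a by 0.43 and Kif27 by 0.21, where the median of all probe sets was 0.41. Kif24 gave 6.73, 6.80 and 6.71 at P0, 6.33, 6.21 and 6.18 at P7, 6.04, 6.07 and 6.16 at P15, 6.19, 6.03 and 6.0 at P21, and 5.93, 5.95 and 6.20 at P56. Kif24, which keeps centrioles from growing cilia, was higher on all P0 arrays than later, with -0.51 (SE 0.08, adjusted p 2.62e-05) at P7 minus P0 and -0.72 (SE 0.08, adjusted p 3.24e-07) at P56 minus P0. Kif6 gave 6.73, 6.63 and 6.70 at P0, 6.52, 6.70 and 6.67 at P7, 6.58, 6.80 and 6.70 at P15, 6.35, 6.64 and 6.48 at P21, and 7.04, 7.07 and 7.06 at P56. Kif6, linked to motile cilia of ependymal cells, was highest at P56, by 0.37 (SE 0.08, adjusted p 0.000438) against P0, but its other probe set, almost as bright, was called lower (-0.16, adjusted p 0.0395), so its direction is unsettled, and the mean of both was not called (0.11). Kif9 gave 7.38, 7.35 and 7.31 at P0, 7.69, 7.79 and 7.76 at P7, 8.03, 7.92 and 8.08 at P15, 7.99, 7.90 and 7.79 at P21, and 7.41, 7.56 and 6.90 at P56. Kif9, of motile cilia, rose by 0.40 (SE 0.12, adjusted p 0.00728) at P7 minus P0 and fell, with -0.60 (SE 0.12, adjusted p 0.000348) at P56 minus P21. Kif19a, which sets the length of motile cilia, moved likewise, by 0.60 (SE 0.07, adjusted p 1.11e-06) and -0.53 (SE 0.07, adjusted p 7.27e-06).

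Kif7, which controls Gli factors at the tip of the primary cilium, was called at P56 minus P21 and at no other step, with 0.34 (SE 0.09, adjusted p 0.00354), and its other probe set was not called there (0.21). Kif27, its closest paralog, was called at no step, with age means between 6.16 and 6.35. The 9 measured ependymal markers had means between 6.30 and 6.51 at the 5 ages, and 1 rose and 4 fell at P56 minus P0. In that comparison 40.1% of all probe sets rose and 35.3% fell. Of the 2 remaining members, Kif12, known from epithelia such as that of the kidney, was below the lower quartile on all arrays of P0 to P21, and the pseudogene Kif4-ps on all 15. Neither was called at any step as deposited, and the other probe set of Kif4-ps was called higher at P56 minus P0 (0.37). With array medians set to 0, Kif12 and Kif4-ps were called higher at P56 minus P0 (0.51 and 0.27), while with quantile normalization Kif4-ps was called lower (-0.17).

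Partners and counterparts of the kinesins changed in both directions between P56 and P0, a comparison in which 40.1% of all probe sets rose and 35.3% fell. Among 26 measured adaptors and cargo regulators there were 10 rises and 12 falls, 4 were uncalled, and the median change was -0.04. The largest changes were those of Hap1, which binds huntingtin and motors (-3.26), Fez2, a relative of a kinesin-1 adaptor (2.40), Cask, a scaffold of the Kif17 cargo complex (-2.28), and Uhmk1, a kinase found with RNA granules (1.74). The mean of Cask was 10.30 at P56 and 12.58 at P0, while that of Kif17 was 9.47 at P56 and 7.23 at P0. Of 23 measured subunits of dynein and dynactin, the motor towards the minus end and its activator, 11 rose and 11 fell, led by Dynlt3 (3.10), Dctn3 (2.45), Dync1h1 (-2.03) and Dync1i1 (1.94). Of 19 microtubule-associated proteins 5 rose and 12 fell, led by Dcx, a protein of young migrating neurons (-6.29), Map2, of dendrites (-2.80), Camsap3, which caps minus ends (-1.54), and Map1b, of growing axons (-1.48). Outside the Kif and Klc symbols, the 3 further kinesins measured all fell: Cenpe, which pulls chromosomes to the spindle equator (-1.49), Kifc3 (-0.82) and Kifc2 (-0.36).

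Other cells' markers moved with the last step, at which 13 kinesins rose and 10 fell, against 22.1% and 34.3% of all probe sets. All 11 measured markers of oligodendrocytes and their precursors fell at P56 minus P21, with a mean of 8.86 at P56 and 9.99 at P21. The 10 astrocyte and Bergmann glia markers had means of 9.59 at P56 and 10.01 at P21, and the 7 granule cell markers 10.53 at P56 and 10.94 at P21. Granule cell markers had been 7.51 at P0 and 10.21 at P7, a larger move than at any later step. The part of these cells in the changes of Kif17, Klc4, Kif26b or Kif21b was not tested.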

How the data were processed

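RNA captured with tagged ribosomes from cerebella of 5 ages was measured on 15 Affymetrix arrays. The deposited log2 signals per probe set were normalized and summarised by the authors with Affymetrix Power Tools, per the submitters' processing notes. Not given in the sources used here are the algorithm, its version, the background correction and the base of the logarithm, which was taken as 2 from the range of the values. All columns belonged to the 15 arrays (0 others), and no value was changed or filtered before the tests. The number of arrays limits the precision, and the labels do not tell whether replicate arrays hold separate pools of mice, so p-values measure the spread between these arrays, which may be technical.

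Probe sets were named from the platform annotation of 2016 (20996 with 1 symbol, 91 with several, 1005 not listed). All 22092 probe sets were fitted with limma 3.58.1 in R 4.3.3, with 1 mean for each age (10 residual and 6.5 prior degrees of freedom). The contrasts were the 4 steps and P56 minus P0, two-sided, with an F-test over the steps. Benjamini-Hochberg adjustment covered all probe sets of a contrast. In simulated data of 22092 probe sets, known log2 changes were added at P56, to 50 probe sets for each size. At P56 minus P0, 14% of changes of 0.25 were called, 74% of 0.5, 98% of 1 and 100% of 2, with 11 false calls. All other simulated probe sets were left unchanged, whereas in the real data 40.1% rose and 35.3% fell. The threshold set by the adjustment therefore differs, and these shares need not hold for the real data. Tables, motif counts and figures were made with Python 3.11.15, pandas 2.3.3 and matplotlib 3.10.9. Every member is named, with array values for paralog groups and for the 3 largest called rises and falls per class (P56 minus P0) and per step, and up to 4 genes per list. Members, classes, lists and motifs were chosen with earlier results of these data known. Alternatives were another scaling, quantile normalization, array weights, another prior, a replicate block, removal of dim probe sets, other rules for probe sets, a minimum change and leaving out each array.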

Additional observations from a re-analysis of the deposited data

How the results depend on the processing

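Of 205 gene changes (41 genes in 5 contrasts), 139 stayed called or stayed uncalled under every alternative that gave them a value. Called changes among them also kept their direction, while the direction of uncalled ones was not compared. The minimum change is left aside, since it was run for counts of genes only. Calls kept with their direction were 18 of 26 at P7 minus P0, 14 of 15 at P15 minus P7, 6 of 9 at P21 minus P15, 17 of 23 at P56 minus P21 and 21 of 32 at P56 minus P0. The causes of the changes below were not tested, beyond what each alternative is built to do. With array medians set to 0, counts of kinesin genes called were 3 higher at P15 minus P7, 23 higher at P56 minus P21, and 18 higher and 15 lower at P56 minus P0, of which the transport kinesins were 8 higher and 2 lower. Among all called probe sets, this scaling gave 62.2% higher at P15 minus P7, 69.1% at P56 minus P21 and 70.2% at P56 minus P0. Genes called in either scaling whose sign turned were, at P56 minus P0, Kif3b (0.012), Kif4-ps (0.27), Kif5b (0.23), Kif9 (0.27), Kif27 (0.21) and Klc1 (0.015). At P56 minus P21 they were Kif4-ps (0.21), Kif14 (0.18) and Kif24 (0.19). Some changes called in neither scaling also turned sign with array medians set to 0, and they are not listed. The median of the mitotic kinesins was then 0.12 at P7 minus P0, -0.85 at P15 minus P7, 0.22 at P56 minus P21 and -0.80 at P56 minus P0. That of the transport kinesins was -0.14, -0.032, 0.067, 0.36 and 0.12 over P7 minus P0, P15 minus P7, P21 minus P15, P56 minus P21 and P56 minus P0.

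With quantile normalization, 2 kinesin genes were called higher at P15 minus P7, where the mitotic median was -0.88. The transport medians were -0.15 at P7 minus P0, -0.061 at P15 minus P7, 0.26 at P56 minus P21 and -0.092 at P56 minus P0. Array weights gave 3 called higher at P15 minus P7, and the trended prior 2. Averaging a gene's probe sets gave a transport median of 0.043 at P56 minus P21. Removing the dimmest 50% of probe sets removed all 12 mitotic kinesins, so no mitotic value remains. This setting left 16 kinesin genes, which all differed between ages. It left 5 higher and 9 lower at P7 minus P0, 2 higher and 5 lower at P15 minus P7, 0 lower at P21 minus P15, 5 higher at P56 minus P21, and 4 higher and 9 lower at P56 minus P0, of which 3 transport kinesins were higher. Its transport medians were -0.13 at P7 minus P0, 0.067 at P21 minus P15 and -0.0024 at P56 minus P21. Requiring an absolute log2 change of at least 1 left 1 higher and 2 lower at P7 minus P0, 0 higher and 4 lower (all mitotic) at P15 minus P7, 0 and 0 at P21 minus P15, 1 and 1 at P56 minus P21, and 3 and 10 at P56 minus P0. Those 3 were transport kinesins, 7 of the 10 were mitotic and 0 were transport. Shares of all probe sets called with that minimum, or without the dim probe sets, were not counted. These counts are therefore not shown to differ from the array. The minimum change was not run for the F-test.

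Leaving out each array in turn gave 1 to 2 kinesin genes called higher at P15 minus P7 (2 without P56 replicate 3) and 3 to 6 called lower at P21 minus P15 (3 without P15 replicate 1). The mitotic median ran between 0.002 and 0.085 at P7 minus P0, lowest without P7 replicate 2, and between -0.059 and 0.071 at P56 minus P21, highest without P56 replicate 3. Deviations of arrays that share a replicate number correlated between -0.32 and 0.45 (median -0.003). Those of arrays with different numbers correlated between -0.42 and 0.24 (median 0.002). Of the 15 arrays, 6 were closest to their own number. These values do not show that the numbers pair the samples, but so few arrays cannot exclude it. With the replicate block, 9 kinesin genes were higher and 23 lower at P56 minus P0, and 12 were higher at P56 minus P21.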
